A study of Mus musculus with 2 samples.

Results

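The 10 genes described here encode growth factors, or in the case of Tgfbi a protein named for its induction by one, that are known for roles in kidney repair: Igf1, Bmp2, Tgfb1, Tgfbi, Pdgfa, Pdgfb, Pdgfc, Hbegf, Vegfa and Areg. They were chosen by name, and each matched 1 gene identifier of the 48795 genes in the count table. RNA was sequenced from resident macrophages of the kidney that were sorted into a CD11c-positive population, R2a, and a CD11c-negative population, R2b. Both came from the kidneys of wild-type C57BL/6 mice aged 8 weeks, with no treatment named in the labels. RNA from 6 to 8 mice had been combined for sequencing, which leaves 1 library per population. Differences among mice could therefore not be seen, and no p-value is printed. All 10 are protein-coding genes.

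Macrophages of the kidney are a source of factors that act on neighbouring tubule, endothelial and mesenchymal cells after injury. Insulin-like growth factor 1 and the ligands of the EGF receptor promote survival and division of tubule cells. Platelet-derived growth factors act on pericytes and fibroblasts, and VEGF-A acts on endothelial cells. TGF-beta 1 drives deposition of extracellular matrix, is secreted in a latent form and has to be released from it, whereas BMP signalling counteracts several of its effects. Macrophages that have taken up dying cells are known to make TGF-beta 1 and IGF-1.

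Genes received 11811923 reads in R2a and 23915896 in R2b, a depth 2.02 times greater in R2b. Values are CPM, reads per 1000000 of the library total after scaling with the TMM method of edgeR, and ranges in parentheses are exact 95% intervals that cover counting error only. To be called, a gene had to reach 1 CPM in the higher library, have a log2 ratio of at least 1 in size after 0.5 CPM was added to each value, and have a fold whose interval excluded 1. All 12 macrophage markers reached 1 CPM in at least 1 library and none was called, with a sum of 26241 CPM in R2a, against 28719.9 in R2b. Most of this sum was Cd74, at 14617 CPM in R2a, against 15660.5 in R2b. Of the 12 log2 ratios 11 were below 0, with a median of -0.13, and Ptprc alone lay above 0, at 0.38. The lowest was that of Csf1r, at -0.42. Itgax, the gene of CD11c, stood at 367 CPM in R2a, against 48.9 in R2b. RNA of kidney epithelium was present at like levels in both libraries, since the 10 proximal tubule markers summed to 2772 CPM in R2a, against 2891 in R2b. In pooled sorted cells, fewer cells of a type and less RNA per cell cannot be told apart.

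Promoter windows are shown for 3 of the growth factors that were detected over a wide range of levels, to set their regulatory sequence beside the values that follow: Areg, with the fewest reads, Vegfa in the middle of the range, and Tgfb1 near its top. Each is the 250 bases before the RefSeq start on GRCm38.p6, 5′ to 3′ on the gene's strand. Areg lies at chr5:91139349-91139598 on the plus strand, Vegfa at chr17:46032378-46032627 on the minus strand and Tgfb1 at chr7:25686752-25687001 on the plus strand. Capitals mark matches on either strand to 6 motifs: AP-1 (TGANTCA), the cyclic AMP response element CRE (TGACGTCA), the GC box (GGGCGG), the TATA box (TATAAA), the core of the hypoxia response element (ACGTG) and the CCAAT box (CCAAT).
Areg: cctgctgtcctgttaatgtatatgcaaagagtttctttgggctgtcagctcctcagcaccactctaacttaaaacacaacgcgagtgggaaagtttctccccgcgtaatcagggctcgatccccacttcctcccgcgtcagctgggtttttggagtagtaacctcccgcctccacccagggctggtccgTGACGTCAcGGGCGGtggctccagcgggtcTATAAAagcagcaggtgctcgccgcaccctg
Vegfa: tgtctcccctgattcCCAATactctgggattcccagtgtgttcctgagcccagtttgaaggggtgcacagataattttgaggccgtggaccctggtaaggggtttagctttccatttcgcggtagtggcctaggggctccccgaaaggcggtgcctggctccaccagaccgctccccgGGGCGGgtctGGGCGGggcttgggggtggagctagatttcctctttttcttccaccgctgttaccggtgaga
Tgfb1: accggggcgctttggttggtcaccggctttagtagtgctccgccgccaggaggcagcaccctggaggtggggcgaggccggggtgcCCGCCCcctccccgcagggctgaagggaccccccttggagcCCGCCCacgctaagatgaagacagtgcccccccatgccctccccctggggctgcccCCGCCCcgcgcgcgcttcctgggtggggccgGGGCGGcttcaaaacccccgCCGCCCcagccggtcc

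The Areg window held a CRE 61 to 54 bases and a TATA box 31 to 26 bases before the start, with a GC box 52 to 47 bases before it. A CRE was found in 1.55% of all 32851 windows of this length in the RefSeq table, a TATA box in 12.4% and a GC box in 32.7%. The Tgfb1 window held 5 GC boxes and no other match, and 75.2% of its bases were G or C. The Vegfa window held 2 GC boxes and a CCAAT box, which 33.9% of windows hold. Neither AP-1, found in 6.75% of windows, nor the hypoxia core, found in 16.6%, was in these 3 windows. A window at another RefSeq start of Vegfa, with 218 of its 250 bases in annotated exon sequence and not printed, held 1 hypoxia core. The Igf1 window lies wholly within annotated exon sequence and is therefore not printed. It held an AP-1 match 37 to 31 bases before the start and a CCAAT box. Of the 10 genes 7 had an entry in the table, and Bmp2, Pdgfb and Hbegf had none. The 6 motifs were kept from a wider scan whose matches had been seen. A match of letters describes the window and does not show that a factor binds there.

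All 10 growth factors were over 1 CPM in at least 1 library, Areg in R2b alone. Bmp2 and Igf1 were lower in R2a, and the other 8 did not pass the rule in either direction. Among all 15603 genes compared, 1.84% were called lower and 1.93% higher in R2a, 3.77% in all. The median log2 ratio of the 10 genes was -0.20, beside -0.01 for all genes compared, whose quartiles were -0.20 and 0.19. Of the 10 ratios 7 were below 0, beside 50.8% of all genes compared. Under total-count and DESeq2 scaling 6 of the 10 were below 0, since Tgfb1 then lay above 0. The interval of the fold excluded 1 for 6 of the 10, beside 36.7% of all genes compared. Such an interval narrows with the number of reads, whatever the size of the difference.

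**Figure D1:**
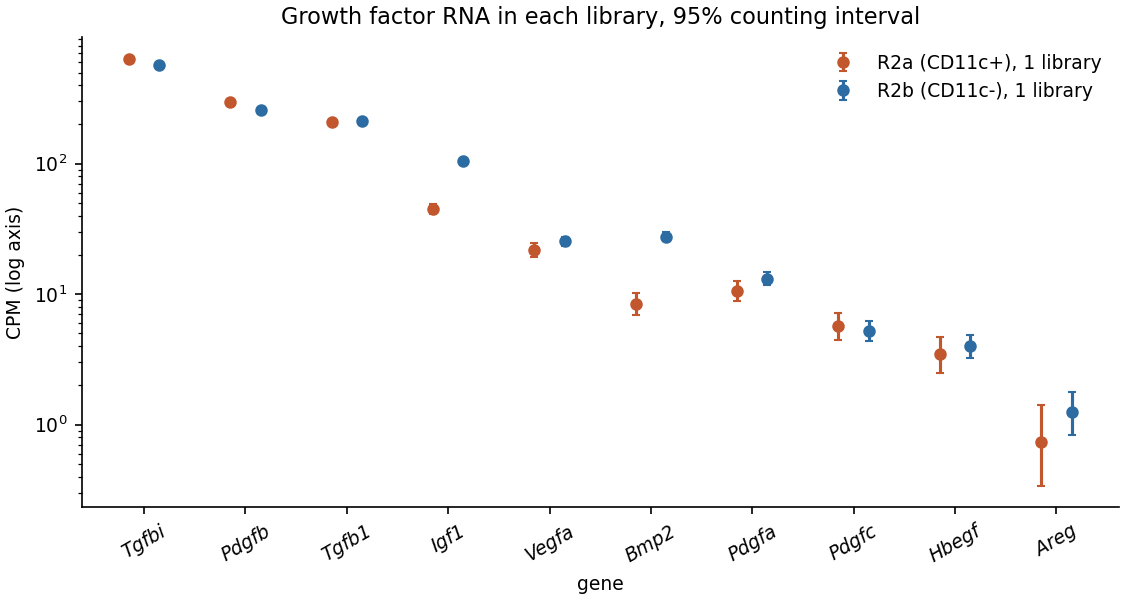
Level of each growth factor in CPM (log axis) in the R2a library (left point of each pair) and the R2b library (right point), with exact 95% counting intervals; 1 library per population. Igf1 (45.2 CPM in R2a, 104 CPM in R2b) and Bmp2 (8.49 CPM in R2a, 27.5 CPM in R2b) are the pairs that stand furthest apart, while the points of Tgfb1 lie side by side.

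Bmp2 encodes a secreted ligand of the BMP branch of the TGF-beta superfamily, which signals through SMAD proteins. The gene (ENSMUSG00000027358.6, GRCm38 chromosome 2, 133552159 to 133562885) had 103 R2a reads and 641 R2b reads. This is 8.49 CPM (6.93 to 10.3) in R2a, against 27.5 CPM (25.5 to 29.8) in R2b, and the intervals do not overlap. Bmp2 was 3.25 times lower in R2a (2.63 to 4.04), with a log2 ratio of -1.64, and 0.263% of the genes compared had a lower ratio.

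Igf1 encodes the ligand of the IGF-1 receptor, made by liver and by many tissue macrophages. The gene (ENSMUSG00000020053.18, chromosome 10, 87858265 to 87937042) had 549 R2a reads and 2431 R2b reads. Its level was 45.2 CPM (41.5 to 49.2) in R2a, against 104 CPM (100.3 to 109) in R2b, which again do not overlap. Igf1 was 2.31 times lower in R2a (2.10 to 2.54), with a log2 ratio of -1.20, and 1.03% of the genes compared had a lower ratio. Both Bmp2 and Igf1 were called under every scaling, added value and CPM minimum tried and with R2b thinned to the depth of R2a.

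**Figure D2:**
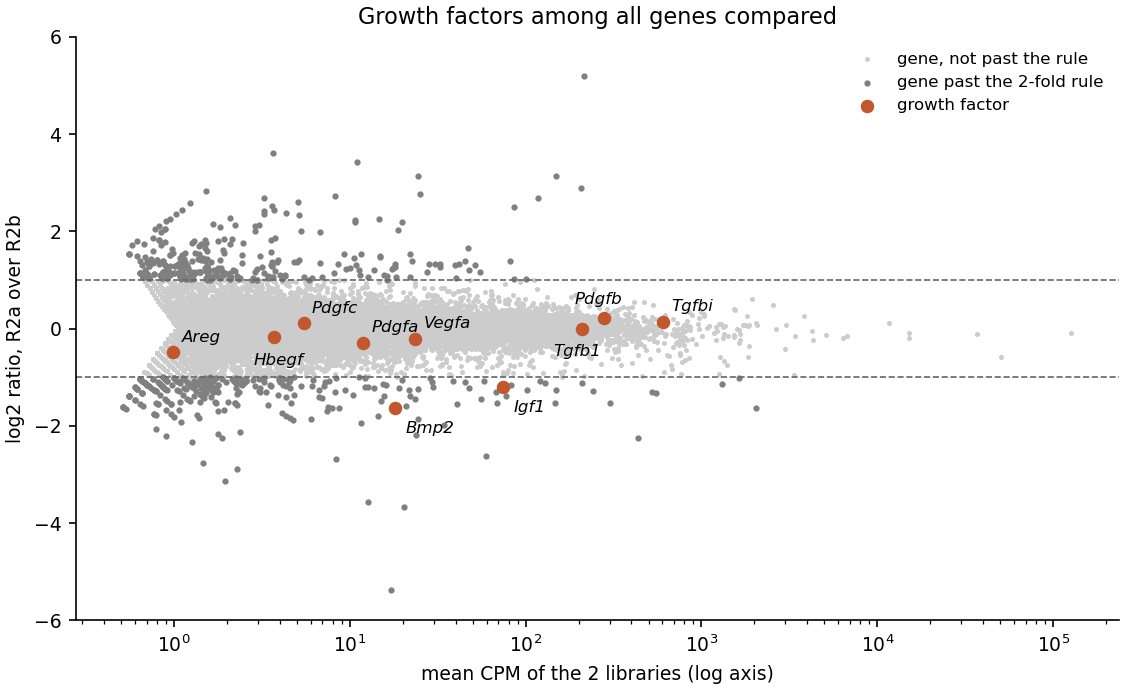
Log2 ratio of R2a over R2b against mean CPM (log axis) for the genes compared, with the 10 growth factors in orange and the 2-fold lines dashed. Bmp2 at -1.64 and Igf1 at -1.20 lie below the lower line, and the other 8 lie between -0.49 and 0.21.

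The TGF-beta pair was abundant and near even between the libraries. Tgfb1 (ENSMUSG00000002603.15, chromosome 7, 25687002 to 25705077) had 2547 R2a reads and 4906 R2b reads, or 209.8 CPM (202 to 218) in R2a, against 211 CPM (205 to 217) in R2b. The ratio of 0.995 had an interval of 0.948 to 1.04, so at this depth a difference of 2-fold would lie far outside counting error. Tgfbi encodes an extracellular matrix protein that binds integrins and collagens, is induced by TGF-beta and is not itself a receptor ligand of that family. Tgfbi (ENSMUSG00000035493.9, chromosome 13, 56609523 to 56639562) had the most reads of the 10 genes, 7649 in R2a and 13335 in R2b. Its level was 630.1 CPM (616 to 644) in R2a, against 573 CPM (563 to 583) in R2b, 1.10-fold higher in R2a (1.07 to 1.13) and far from the 2-fold rule. Reads on Tgfbi were 51.1% of the reads of all 10 genes in R2a and 46.9% in R2b.

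The platelet-derived growth factor genes encode chains that form dimers and signal through the receptors PDGFRA and PDGFRB. Pdgfb (ENSMUSG00000000489.6, chromosome 15, 79995874 to 80014977) had 3620 R2a reads and 5995 R2b reads, or 298 CPM (289 to 308) in R2a, against 258 CPM (251 to 264) in R2b. It was 1.16-fold higher in R2a (1.11 to 1.21), and its log2 ratio of 0.21 was the highest of the 10 genes. Pdgfa (ENSMUSG00000025856.15, chromosome 5, 138976014 to 138997370) had 129 R2a reads and 306 R2b reads. Its level was 10.6 CPM (8.87 to 12.6) in R2a, against 13.1 CPM (11.7 to 14.7) in R2b, a ratio of 0.808 (0.653 to 0.996). An antisense gene, 6330403L08Rik, shares 813 exon bases, or 26.1% of the exons of Pdgfa, and no source used here gives the strand setting of the counting, so reads of the pair cannot be told apart with certainty. Pdgfc (ENSMUSG00000028019.9, chromosome 3, 81036416 to 81214040) had 69 R2a reads and 122 R2b reads, or 5.68 CPM (4.42 to 7.19) in R2a, against 5.24 CPM (4.35 to 6.26) in R2b. None of the 3 chains was called.

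VEGF-A is the main growth and survival factor of endothelial cells and in the kidney is made in quantity by podocytes. Vegfa (ENSMUSG00000023951.16, chromosome 17, 46016993 to 46032369) had 266 R2a reads and 591 R2b reads. Its level was 21.9 CPM (19.4 to 24.7) in R2a, against 25.4 CPM (23.4 to 27.5) in R2b, with overlapping intervals and a ratio of 0.863 (0.744 to 0.999). Podocyte markers were present beside it, and 2 of 10 were higher in R2a. The podocyte transcription factor gene Wt1 stood at 5.27 CPM in R2a, against 1.85 in R2b. All 10 genes of the podocyte list reached 1 CPM in at least 1 library, with a sum of 818 CPM in R2a, against 828 in R2b, of which Ptpro gave 186 CPM in R2a, against 191 in R2b. The part of podocyte RNA in the Vegfa level was not tested.

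The ligands of the EGF receptor family had the fewest reads of the 10 genes. Heparin-binding EGF-like growth factor, encoded by Hbegf (ENSMUSG00000024486.5, chromosome 18, 36504927 to 36515805), had 42 R2a reads and 93 R2b reads. This is 3.46 CPM (2.49 to 4.68) in R2a, against 3.996 CPM (3.23 to 4.90) in R2b, a ratio of 0.866 (0.587 to 1.26). Amphiregulin, encoded by Areg (ENSMUSG00000029378.5, chromosome 5, 91139599 to 91148432), had 9 R2a reads and 29 R2b reads, or 0.741 CPM (0.339 to 1.41) in R2a, against 1.25 CPM (0.835 to 1.79) in R2b. The ratio of Areg was 0.595 with an interval of 0.248 to 1.29. A level 2 times lower in R2a lay inside the interval of Areg and outside that of Hbegf, so for Areg such a difference was not detectable at this depth.

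**Figure D3:**
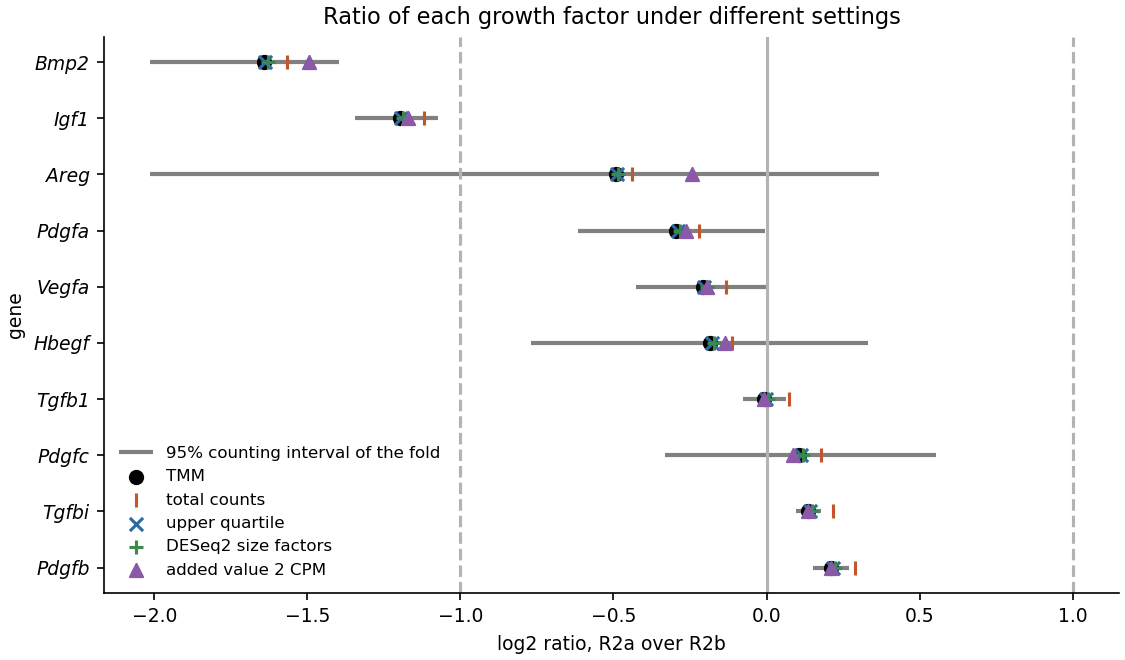
Log2 ratio of R2a over R2b for each growth factor (horizontal axis) under 4 scalings and with a larger added value, with the 95% counting interval of the fold under TMM as a grey line and the 2-fold lines dashed. Bmp2 and Igf1 stay left of -1 at every marker; total counts move each ratio to the right, with Tgfb1 at 0.072.

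Per length, the same 3 genes led the order of the levels in both libraries. In CPM per kilobase of annotated exon, Tgfbi stood at 167 in R2a and 152 in R2b, Pdgfb at 71.7 in R2a and 61.9 in R2b, and Tgfb1 at 41.6 in R2a and 41.8 in R2b. These 3 genes exceeded the level of 95.6% or more of all genes compared in each library. In R2a they were followed by Vegfa at 5.11, Igf1 at 4.57, Pdgfa at 3.41 and Bmp2 at 2.39 CPM per kilobase. In R2b the next places went to Igf1 at 10.5, Bmp2 at 7.75, Vegfa at 5.93 and Pdgfa at 4.22 CPM per kilobase, so Igf1 and Bmp2 stood above Vegfa in R2b and below it in R2a. For Igf1 this order rests on the length used: per kilobase of the longest transcript, Igf1 stood at 6.41 and Vegfa at 6.35 in R2a, which puts Igf1 above Vegfa in both libraries. In R2a the intervals of Vegfa and Igf1 overlapped, as did those of Pdgfa and Bmp2, whereas in R2b those of Igf1, Bmp2, Vegfa and Pdgfa were separate. Pdgfc, Hbegf and Areg came last in both libraries, between 0.610 and 1.12 CPM per kilobase, and the intervals of neighbours among them overlapped. The level of Tgfbi per kilobase was 274 times that of Areg in R2a and 184 times that of Hbegf in R2b.

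Within their families, the growth factors differed in how far 1 ligand dominated. Pdgfb made up 93.3% of the summed CPM per kilobase of the 4 PDGF genes in R2a and 91.5% in R2b. Tgfb1 made up 84.2% of the 3 TGF-beta genes in R2a and 86.1% in R2b, and Igf1 made up 98.4% of the IGF pair in R2a and 98.8% in R2b. Among the 6 BMP ligand genes Bmp2 held 31.3% in R2a and 62.5% in R2b, whereas Bmp6 held 34.6% in R2a and 16.4% in R2b. Bmp6, at 10.3 CPM in R2a, against 7.91 in R2b, was itself not called. Vegfa held 37.8% of the VEGF family in R2a and 34.1% in R2b, behind Vegfb with 53.5% in R2a and 59.6% in R2b. This order rests on the division by exon length. In CPM, Vegfa stood above Vegfb, at 21.9 against 11.6 in R2a and at 25.4 against 16.6 in R2b. Vegfb had a log2 ratio of -0.50, the largest in size among the PDGF and VEGF ligands, of which 8 of 9 were measured, 0 were called, the median log2 ratio was 0.0018 and no read fell on Pgf. In the EGF family the kidney's own Egf held 88.6% in R2a and 87.6% in R2b, while Hbegf and Areg each held under 2.5% in both.

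**Figure D4:**
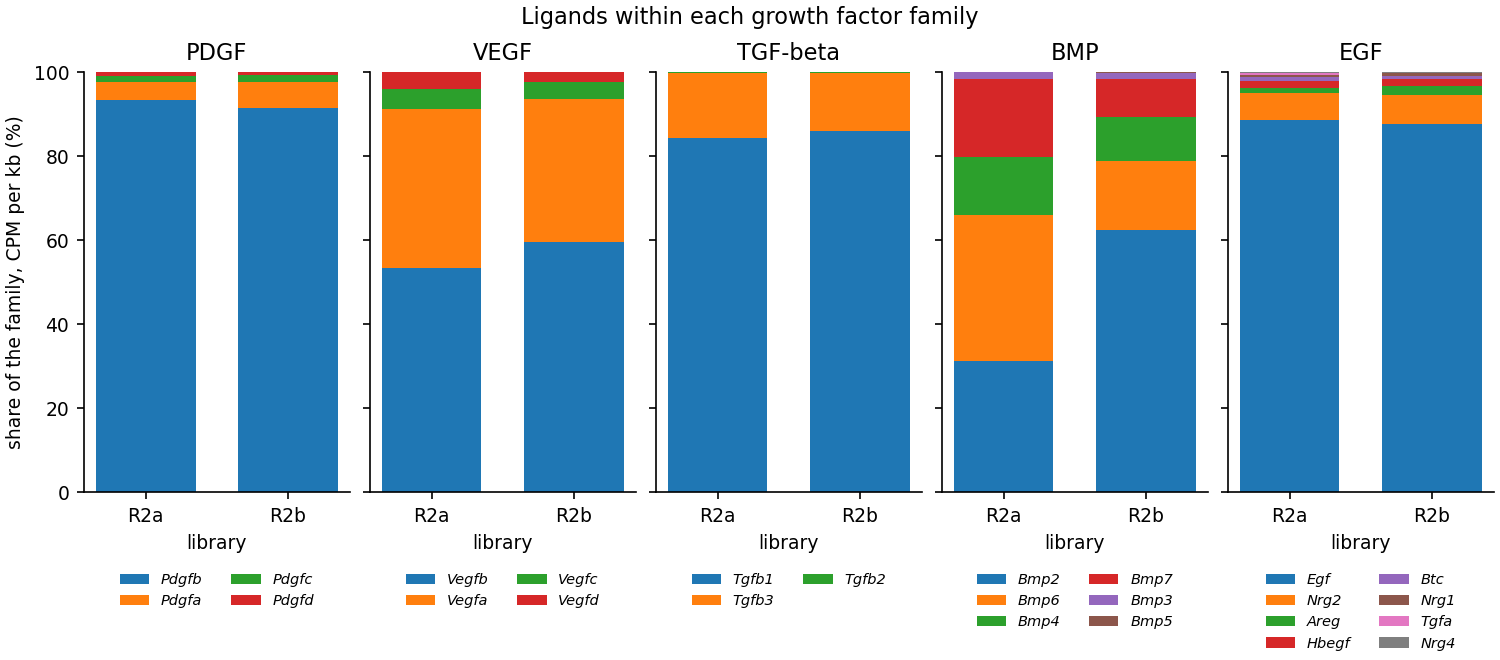
Share of each ligand in the summed CPM per kilobase of its family (vertical axis, percent), R2a left and R2b right in each panel; each bar adds up to the whole family and genes without reads are left out. The BMP panel shows the largest visible change of make-up, with Bmp2 at 31.3% in R2a and 62.5% in R2b.

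Egf, the founding EGF receptor ligand, is known as a product of the thick ascending limb and distal tubule and not of macrophages. It had 5237 R2a reads and 10839 R2b reads, or 431 CPM in R2a, against 466 in R2b, more reads than any of the 10 growth factors except Tgfbi. The 10 markers of the loop, distal tubule and collecting duct, which include Egf, were all over 1 CPM in at least 1 library, had 1 gene called, Atp6v1g3, which was higher in R2a, and summed to 1530.5 CPM in R2a, against 1699.7 in R2b. Among them Umod stood at 366 CPM in R2a, against 400.5 in R2b. The neuregulin Nrg2 stood at 8.65 CPM in R2a, against 10.3 in R2b, Btc, the betacellulin gene, at 1.65 CPM in R2a, against 1.38 in R2b, and no read fell on Ereg, Epgn or Nrg3. Of 11 EGF family ligands 6 were over the minimum and 0 were called, with a median log2 ratio of -0.17. How much of Hbegf, Areg, Vegfa or the other less abundant members came from tubule RNA was not tested.

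The genes that receive or process EGF ligands also did not pass the rule. Of 10 receptors, sheddases and their regulators 0 were called, with a median of -0.14. The sheddase genes Adam10 and Adam17, whose products release ligands from the cell surface, stood at 246 and 244 CPM in R2a and at 228 and 222 CPM in R2b. Rhbdf1, which encodes a rhomboid protein that controls ADAM17, had the largest ratio, -0.50, and the feedback inhibitor gene Errfi1 had -0.34.

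Most receptors for PDGF and VEGF had low CPM. Of 7 genes 0 were called, with a median log2 ratio of 0.19. A minimum of 5 CPM kept only Nrp1, Nrp2 and Kdr, so the median of -0.61 under it is the ratio of Nrp1. Nrp1 was the exception in level, and the neuropilin co-receptors Nrp1 and Nrp2 had the largest log2 ratios in size. Nrp1 stood at 186 CPM in R2a, against 283 in R2b (log2 ratio -0.61), and Nrp2 at 14.99 CPM in R2a, against 26.9 in R2b, with -0.82. Kdr, the main endothelial VEGF receptor, stood at 12.2 CPM in R2a, against 10.7 in R2b, and Pdgfra, found on fibroblasts, at 1.65 CPM in R2a, against 2.49 in R2b.

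In the IGF system 2 of 11 measured genes were lower in R2a and 0 higher, with a median log2 ratio of -0.17. Beside Igf1 the lower gene was Igfals, which encodes a protein that stabilises circulating IGF complexes, at 1.24 CPM in R2a, against 3.18 in R2b. The IGF binding protein gene Igfbp4 stood at 128 CPM in R2a, against 209 in R2b (log2 ratio -0.70). The receptor Igf1r, at 148 CPM in R2a, against 167 in R2b, and the adaptor Irs2, at 182 CPM in both, both lay inside the rule's bounds. Fibroblasts and pericytes are another source of Igf1 in tissue. Of 10 measured markers of those cells 3 were lower in R2a (Dcn, Col3a1 and Col1a2) and 0 higher. Ratios were below 0 for 8 of the 10, with a median of -0.53, and above 0 for Pdgfrb and Cspg4. Pdgfrb stood at 3.87 CPM in R2a, against 2.58 in R2b, and Cspg4 at 7.74 CPM in R2a, against 6.70 in R2b. That list of 12 summed to 28.3 CPM in R2a, against 40.6 in R2b, with Lum at 0 reads in both and Dcn at 0.494 CPM in R2a, against 2.11 in R2b. The part of these cells in the difference of Igf1 was not tested.

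Among 12 measured ligand genes of the TGF-beta superfamily Bmp2 alone was called, and the median log2 ratio was -0.06. Tgfb3 stood at 25.9 CPM in R2a, against 22.7 in R2b. Gdf3, a ligand of the nodal branch that adipose tissue macrophages are known to express, lay just short of the rule at 7.99 CPM in R2a, against 3.91 in R2b (log2 ratio 0.95). Under total-count scaling its ratio was 1.02 and it was called higher.

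Of 17 measured genes that hold or release latent TGF-beta 2 were lower in R2a and 0 higher, with a median that rounded to -0.00. Thbs1, whose product thrombospondin 1 can activate latent TGF-beta, stood at 36.7 CPM in R2a, against 78.7 in R2b, a log2 ratio of -1.09. Mmp9, a gelatinase gene that neutrophils also express, had 2 R2a reads and 103 R2b reads, a ratio of 0.0372 (0.00445 to 0.138). The integrin chains Itgb1, Itgb5 and Itgav had the highest CPM, at 542, 526 and 456 CPM in R2a and at 536, 573 and 373 CPM in R2b. Nrros, which tethers latent TGF-beta to myeloid cells, stood at 279 CPM in R2a, against 338 in R2b. Mmp14 had a log2 ratio of 0.43.

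Of 12 receptor genes for TGF-beta and BMP 0 were called, with a median of -0.12. Tgfbr1 had the highest CPM, at 2336 CPM in R2a, against 1523 in R2b, and the largest log2 ratio, 0.62. Tgfbr2 stood at 763 CPM in R2a, against 896 in R2b, the BMP receptor Bmpr2 at 244 CPM in R2a, against 269.6 in R2b, and Bmpr1a had a log2 ratio of -0.42. Among the antagonists and targets 1 of 10 measured genes was higher in R2a and 0 lower. Among the 9 that did not pass, log2 ratios were -0.21 for the BMP target Id2, -0.12 for Skil, -0.06 for Tgif1 and -0.63 for Bambi, which encodes a decoy receptor. The median of the 10 was -0.18.

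**Figure D5:**
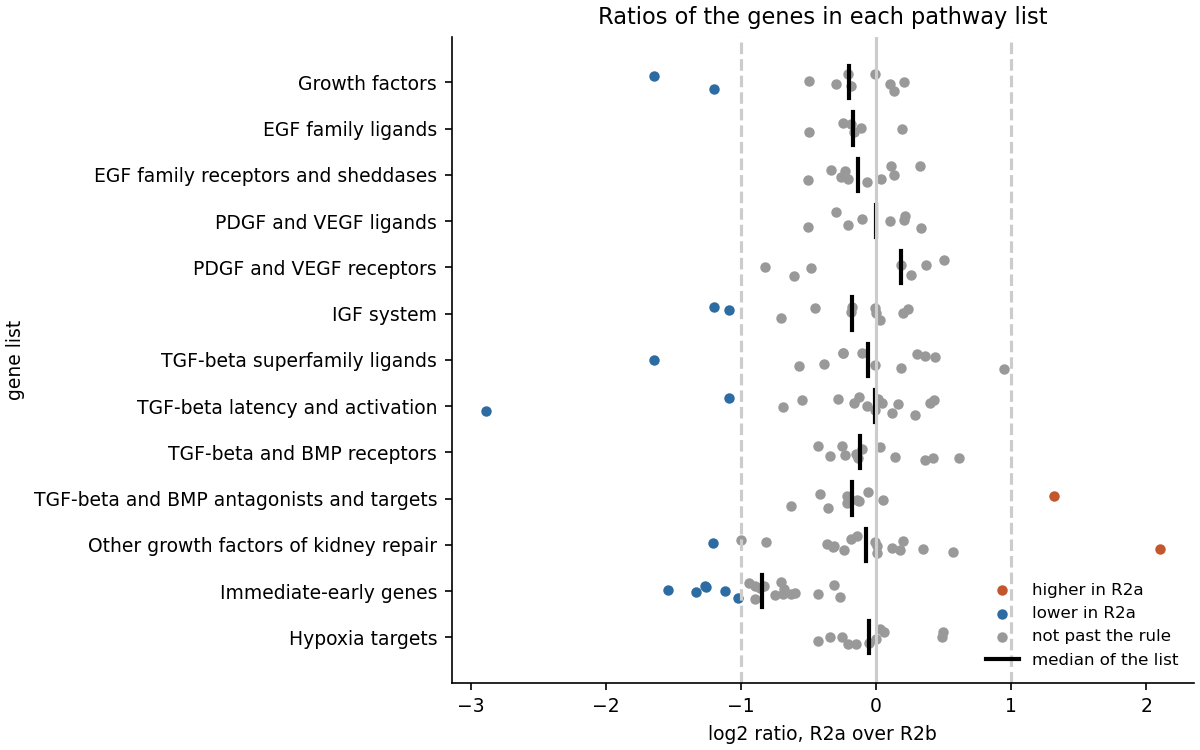
Log2 ratio of R2a over R2b (horizontal axis) of each gene over 1 CPM in 13 lists (rows), with the median of each list as a black bar and genes past the rule in orange (higher in R2a) or blue (lower in R2a). The median of the immediate-early genes is -0.84, and those of the other 12 lists lie between -0.20 and 0.19.

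Among 18 measured further growth factors linked to kidney repair, 1 was higher in R2a and 1 lower, and the median log2 ratio was -0.07. Osm, which encodes the cytokine oncostatin M, was lower at 17.8 CPM in R2a, against 41.7 CPM in R2b, a log2 ratio of -1.21. Ptn, the gene of pleiotrophin, was at 20 reads in R2a, against 0 in R2b, and the exact interval of its fold starts at 9.47. Gas6, the bridging ligand between dying cells and the receptor MERTK, stood at 108 CPM in R2a, against 216 in R2b. Its log2 ratio of -0.998 was just short of the rule. Granulin, Grn, had the highest CPM of this list at 382 CPM in R2a, against 477 in R2b, and osteopontin, Spp1, stood at 139 CPM in both. The hepatocyte growth factor gene Hgf stood at 32.9 CPM in R2a, against 25.7 in R2b. Wnt7b, a macrophage signal in kidney repair, stood at 1.40 CPM in R2a, against 1.59 in R2b.

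Hbegf and Areg are known to be induced quickly by stress, as immediate-early genes are, and the cells had been freed from tissue with collagenase. All 20 immediate-early genes had ratios below 0, with a median of -0.84, and 6 were lower in R2a: Fosl2, Fosb, Egr2, Klf4, Klf2 and Fos, of which Fos was not called under total-count scaling. Their sum was 7012 CPM in R2a, against 12265 in R2b. The highest CPM were those of Fos, at 1079 CPM in R2a, against 2189.6 in R2b, Dusp1, at 1043 CPM in R2a, against 1749.7 in R2b, and Klf6, at 826 CPM in R2a, against 1026 in R2b. The part of this list in the levels of the growth factors was not tested. Of 11 measured hypoxia targets, which include Vegfa, 0 were called. Their median was -0.05, and 0.026 under total-count scaling, and Slc2a1, a glucose transporter gene, had -0.43, Hk2 -0.34 and Pfkfb3 -0.25, while Ndrg1, with the highest CPM, had -0.05 and Ldha 0.03.

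Markers of other cells that make these growth factors also differed in part. Endothelial cells express Pdgfb and Bmp2. The 12 endothelial markers summed to 127 CPM in R2a, against 95.4 in R2b. Of this sum Eng, which is also on the TGF-beta and BMP receptor list, gave 59.4 CPM in R2a and 46.0 in R2b. Of the 12, 2 were higher in R2a (Robo4 and Cldn5, each with 15 reads in R2b) and 0 lower. Ratios were above 0 for 9 and below 0 for 3, with a median of 0.41. The lowest was that of Plvap, at 2.88 CPM in R2a, against 5.50 in R2b, a ratio of 0.524 (0.350 to 0.767). Monocyte markers went both ways. Of 10 measured, 3 were higher in R2a (Ccr2, Treml4 and Ear2) and 1 was lower (F13a1), and 6 of the 10 ratios were below 0, with a median of -0.24. Ccr2 stood at 267 CPM in R2a, against 29.7 in R2b, and F13a1 at 0.330 CPM in R2a, against 33.8 in R2b. The sum of the 12 markers, 436 CPM in R2a, against 248 in R2b, is thus mostly Ccr2 in R2a. In R2b it is mostly Nr4a1, which is also on the immediate-early list, at 136 CPM in R2a, against 164 in R2b. Ly6c2, a defining monocyte gene, was at 5 reads in R2a, against 0 in R2b. Of 9 measured dendritic cell markers 3 were higher in R2a (Ccl22, Dpp4 and Xcr1) and 0 lower. Ratios above 0 were 6 of the 9, with a median of 0.18. Those not called had log2 ratios of -0.20 (Zbtb46), -0.19 (Irf4), -0.04 (Ccr7), 0.10 (Flt3), 0.18 (Itgae) and 0.83 (Clec9a). The list of 10 summed to 139 CPM in R2a, against 78.6 in R2b, of which Dpp4 gave 65.3 CPM in R2a, against 24.8 in R2b. Of 6 measured markers of B, T and NK cells and neutrophils 3 were lower in R2a (Mmp9, Cd3e and Pax5) and 0 higher, with a median of -0.98. The list of 15 summed to 63.8 CPM in R2a, against 72.1 in R2b, but nearly all of it was Csf3r, at 60.4 CPM in R2a, against 59.4 in R2b, and Ly6g had 0 reads in both. The part of these cells in the levels of the growth factors was not tested.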

How the data were processed

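The authors used bcl2fastq 2.18.0.12, STAR 2.5.3 and HTSeq 0.9.1 with the mouse build GRCm38, per the submitters' processing notes. Alignment was done by STAR and gene counting by HTSeq, per the labels' protocols. The deposited values are raw counts of reads per gene for 2 libraries, of 75-base paired ends and with ribosomal RNA reduced. No source used here names the annotation release, the strand setting or the count mode. The 5 summary rows of the counter stayed out of library sizes. Of the table's total, reads assigned to no gene made up 41.2% in R2a and 38.9% in R2b. Ambiguous reads made up 2.42% in R2a and 2.51% in R2b, and multiply aligned reads 8.50% in R2a and 8.33% in R2b.

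Symbols, positions and exon lengths came from GENCODE release M21 on GRCm38, which matched 48435 of 48795 identifiers, 41427 of them with their version. TMM scaling used edgeR 4.0.16 (R 4.3.3), with DESeq2 1.42.0 size factors among the alternatives. Intervals are exact (Poisson for levels, Clopper-Pearson for folds, scipy 1.17.1). No source used here names molecular identifiers, and reads may be PCR copies, so counting error is the only error in the intervals and floors. A floor of 3 counts is 0.247 CPM in R2a and 0.129 CPM in R2b. The calls were tested before use on simulated data with counting error only. Those data held no variation among mice, sorts or PCR copies, and their planted folds were all larger than 2-fold. With 1 library per group no model was fitted and no set was tested. The members and lists were chosen with earlier results of these data known. In each pathway list the genes named were those past the rule, the 3 most abundant and the 2 with the largest ratios among those of at least 5 CPM; other genes named were chosen after their values were seen. Some genes that this rule names are not reported here. Likeness of pattern between genes was not computed, because each gene has 1 ratio. One symbol in the hypoxia list was corrected to its mouse form, Car9, after the table was opened.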

Additional observations from a re-analysis of the deposited data

Results flagged for a closer look

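Reads outside the growth factor counts were found on annotated genes that overlap 3 of the growth factors, above the 3 reads that a count of 0 allows. The antisense gene 6330403L08Rik, which overlaps Pdgfa, had 141 reads in R2a and 395 reads in R2b, more than Pdgfa itself in each library, and a ratio of 0.684 (0.561 to 0.832). Igf1os, antisense to Igf1 and sharing 0 exon bases with it, had 5 reads in R2a and 29 reads in R2b, a ratio of 0.331 (0.0999 to 0.864). The microRNA gene Mir7213, inside Pdgfb and on its strand, had 23 reads in R2a and 24 reads in R2b, a ratio of 1.84 (0.991 to 3.40).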

How the results depend on the processing

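Of the 10 growth factors, 2 were lower and 0 higher under all 10 alternatives that bear on the calls. Of 70 ratios under alternatives 67 stayed within the counting interval. Total-count scaling moved Tgfb1 to 0.072, Tgfbi to 0.22 and Pdgfb to 0.29, and the medians of the immediate-early genes to -0.76 and of the hypoxia targets to 0.026. It gave 377 genes higher and 240 lower in R2a, 61.1% of calls higher against 51.2%. A minimum of 5 CPM moved the median of the PDGF and VEGF receptors to -0.61, the ratio of Nrp1, since only Nrp1, Nrp2 and Kdr were kept. The median of the TGF-beta superfamily ligands ranged over the alternatives between -0.07 and 0.30. The main rule called 301 genes higher and 287 lower. Adding 0.1 CPM instead gave 493 higher and 462 lower, and adding 2 CPM gave 82 higher and 78 lower. Requiring 5 CPM, which leaves fewer genes, gave 92 higher and 97 lower. A 1.5-fold bound gave 869 higher and 903 lower, and protein-coding genes alone 168 higher and 206 lower. With the longest transcript as length, which is shorter than all exons together, CPM per kilobase in R2a was 6.41 for Igf1, 81.5 for Tgfb1, 209.8 for Tgfbi, 5.16 for Pdgfa, 101 for Pdgfb, 1.61 for Pdgfc, 1.20 for Hbegf and 6.35 for Vegfa. In R2b it was 14.8 for Igf1, 81.9 for Tgfb1, 191 for Tgfbi, 6.38 for Pdgfa, 87.5 for Pdgfb, 1.49 for Pdgfc, 1.38 for Hbegf and 7.36 for Vegfa. No replicate could be left out. No paired analysis was possible because each group holds 1 library. Depth limits Areg most, with 9 reads in R2a.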
